A study of Rattus norvegicus with 16 samples.

Results

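The genes described here are 35 transcriptional targets of p53, taken by gene symbol from a fixed list and followed through rat ovaries exposed to a PARP inhibitor. A probe was found for 34 of the 35; the missing one was Ercc5, an endonuclease of nucleotide excision repair. Of these, 33 passed the filter on dim probes, among 20227 genes tested over the whole array. Of the 20227, 16352 had a gene symbol, and each probe without a symbol was counted as a gene of its own. Where a gene had several probes, the one with the highest mean over the 16 arrays stood for it.

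The ovaries were taken from Jcl:SD females (a Sprague-Dawley outbred stock), with 1 single-colour Agilent whole-genome array per animal. The 4 groups were BRCA1+/- rats given olaparib, BRCA1+/- rats given vehicle, wild-type rats given olaparib and wild-type rats given vehicle, with 4 arrays each. BRCA1+/- rats are heterozygous for an altered Brca1, which homologous recombination repair depends on; the labels do not say what the alteration is. Olaparib, which inhibits PARP1 and PARP2, was injected under the skin at 50 mg/kg once daily for 14 days starting at 3 weeks of age, and ovaries were removed 24 h after the last dose. The labels used here do not say what the vehicle was, nor how and when the vehicle animals were injected and sampled.

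p53 is a transcription factor that MDM2 keeps at a low level in undamaged cells. When the kinases ATM, ATR, CHK1 and CHK2 signal DNA damage, p53 escapes MDM2 and switches on genes that halt the cell cycle, trigger cell death, aid repair, adjust metabolism, or, through Mdm2 itself, switch p53 off again. PARP inhibitors trap PARP on DNA breaks, and cells short of BRCA1 repair the resulting lesions poorly. In the ovary, p53 and its relative p63 are known for their part in the loss of oocytes after DNA damage.

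All values are log2 signals: the log2 of the scanner's processed intensity minus the 75th percentile of the same array. A value of 0 therefore lies at the brightness of that percentile, and values of different genes are not comparable because each probe has its own response. The 75th percentile of the processed signal ran from 202 to 566 over the arrays. Each array had 55.5% to 60.7% of its probes well above background. Markers of granulosa cells, theca cells and oocytes were well above background on all 16 arrays, apart from Cyp19a1 on 15 arrays and Dazl on 12. Ddx4, another oocyte marker, was not among the genes tested, so no count is given for it. Brca1 averaged -0.72 ± 0.36 in BRCA1+/- olaparib ovaries, -1.12 ± 0.31 in BRCA1+/- vehicle ovaries, -0.56 ± 0.49 in wild-type olaparib ovaries and -0.44 ± 0.36 in wild-type vehicle ovaries (SD, n = 4 each), a genotype difference that did not pass in limma (adjusted p = 0.862 with vehicle and 1.00 with olaparib). Whether its probe lies in the altered part of the gene is not given. On 6 arrays, markers of oviduct and ciliated epithelium stood apart: replicates 3 and 4 of BRCA1+/- olaparib, replicates 3 and 4 of BRCA1+/- vehicle, replicates 1 and 3 of wild-type olaparib, and 0 of 4 wild-type vehicle arrays. The arrays lay on 2 slides, with replicates 1 and 2 of every group on the first and 3 and 4 on the second, and 0 of the 33 genes were called between slides after adjustment, against 7.91% of all genes. At an unadjusted limma p under 0.05 there were 2 of the 33 (Sesn1 and Rrm2b), against 23.9% of all genes. In both BRCA1+/- groups the arrays with high oviduct markers are the 2 arrays of the second slide, so oviduct markers and slide cannot be told apart there.

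Many p53 targets carry a p53 response element, a pair of half-sites, near their start. Promoter windows of 300 bases, from 250 before to 50 after the annotated start, were available for 27 of the 35 genes in RefSeq (build GRCr8). A half-site without mismatch, read on both strands, occurred in 6 of these 27 windows (22.2%), against 8.57% of all 27457 windows. A pair of half-sites with a spacer of at most 13 bases and at most 1 mismatch in all occurred for 2 genes, Cdkn1a and Gadd45a, against 0.379% of all windows; each such pair overlaps the half-site counted for the same gene. The 6 stretches that hold a match are shown with their half-sites in capitals. The arrays' values of these genes can be read beside them. Each pair holds 1 mismatch, also in capitals. It is the first base of the second half-site for Cdkn1a and the last base of the first half-site for Gadd45a. A match describes letters, and binding was not measured.
Cdkn1a, chr20:7150711-7150770, plus strand: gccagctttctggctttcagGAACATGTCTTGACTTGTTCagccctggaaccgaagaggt
Gadd45a, chr4:97486818-97486888, minus strand: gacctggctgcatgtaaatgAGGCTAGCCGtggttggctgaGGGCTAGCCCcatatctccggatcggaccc
Ccng1, chr10:25685079-25685126, minus strand: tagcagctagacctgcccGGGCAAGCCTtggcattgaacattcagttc
Aen, chr1:142224483-142224532, plus strand: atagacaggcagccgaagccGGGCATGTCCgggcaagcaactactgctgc
Ei24, chr8:44699421-44699470, minus strand: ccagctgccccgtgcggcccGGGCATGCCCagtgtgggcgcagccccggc
Sesn1, chr20:46948527-46948576, plus strand: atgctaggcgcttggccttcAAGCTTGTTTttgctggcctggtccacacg

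No p53 target passed the test in any of the 7 comparisons. With olaparib against vehicle, 0 of 33 were called in BRCA1+/- ovaries and 0 of 33 in wild-type ovaries, and the share called over all 20227 genes was likewise 0% in each. At an unadjusted limma p under 0.05 the counts were 3 of 33 in BRCA1+/- ovaries, where 1.17% of all genes reached it, and 1 of 33 in wild-type ovaries, where 4.33% did. By direction these were 1 higher (Aen; 0.534% of all genes) and 2 lower (Plk2 and Dcxr; 0.638%) in BRCA1+/- ovaries, and 1 higher (Perp; 2.26%) and 0 lower (2.07%) in wild-type ovaries. The lowest Benjamini-Hochberg adjusted p from limma among the targets was 0.9999 in BRCA1+/- ovaries and 0.964 in wild-type ovaries. The targets were split nearly evenly in direction, with 17 higher and 16 lower under olaparib in BRCA1+/- ovaries and 16 higher and 17 lower in wild-type ovaries. Their median log2 difference was 0.01 in BRCA1+/- ovaries, against 0.02 over all genes, and -0.02 in wild-type ovaries, against -0.07 over all genes.

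The same held between genotypes. BRCA1+/- against wild-type ovaries gave 0 of 33 called under olaparib (0% of all genes) and 0 of 33 under vehicle (0% of all genes). At an unadjusted limma p under 0.05 there were 0 of 33 under olaparib, where 0.915% of all genes reached it, and 1 of 33 under vehicle, where 5.5% did. The background was 0.554% higher and 0.361% lower under olaparib, and under vehicle 1.93% higher, the side on which the 1 target (Perp) lay, and 3.57% lower. The averages over both genotypes and over both treatments gave 0 called and 0 at an unadjusted limma p under 0.05, against backgrounds of 1.32% for olaparib (0.415% higher, 0.905% lower) and 2.2% for genotype (0.969% higher, 1.23% lower). The interaction (how much the olaparib difference of BRCA1+/- ovaries exceeds the wild-type one) also gave 0 called (0% of all genes) and 0 at an unadjusted limma p under 0.05, where 3.44% of all genes reached it (2.03% higher, 1.4% lower). Groups without overlap were seen for 1 target higher and 1 lower under olaparib in BRCA1+/- ovaries (0.499% and 0.608% of all genes), 0 and 0 in wild-type ovaries (0.564% and 0.593%), 0 and 0 for genotype under olaparib (0.326% and 0.257%), and 1 and 0 for genotype under vehicle (1.25% and 2.19%). These comparisons share arrays and are not independent.

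How far the arrays could have shown a response differed between genes. The limma 95% interval of the olaparib difference lay within a doubling and a halving for 17 of 33 genes in BRCA1+/- ovaries and for 19 of 33 in wild-type ovaries, and for 27 of 33 averaged over both genotypes. Its upper bound was below a doubling for 26, 23 and 31 of the 33 in the same order of comparisons. For the averaged comparison the 2 genes whose upper bound exceeded a doubling were Perp and Gdf15. The interaction was the least precise, with 8 of 33 intervals inside these limits. These intervals and the SEs given below use a single spread per gene, shared by all groups. They therefore do not follow the wider spread of some groups.

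**Figure D1:**
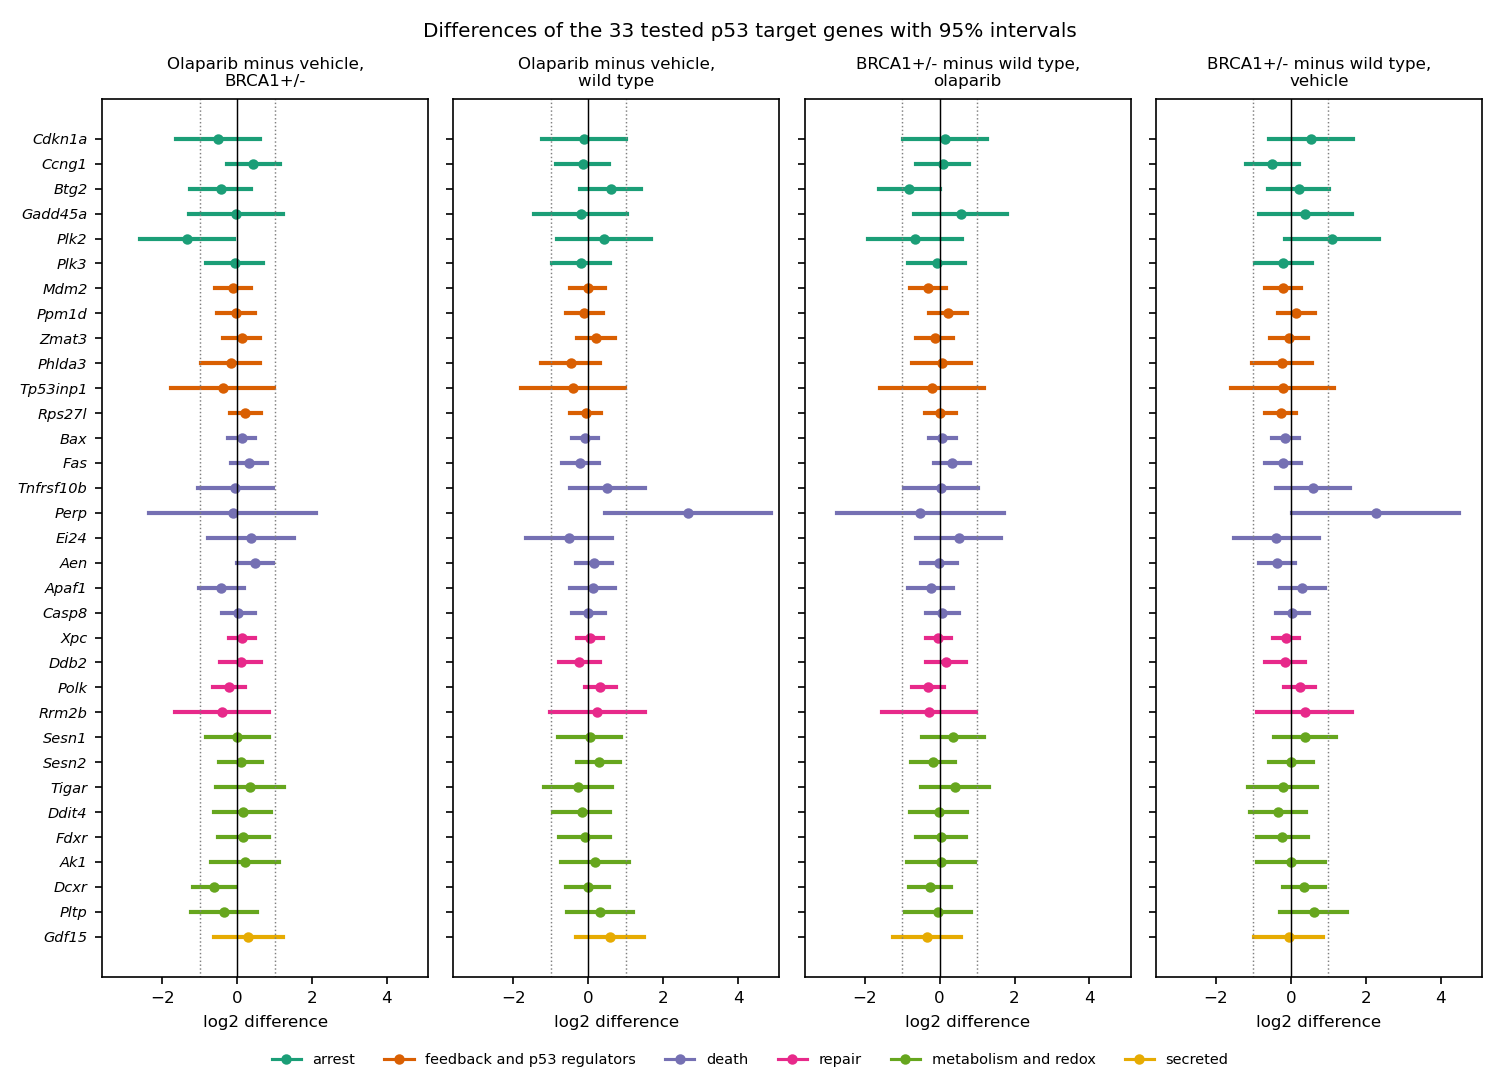
Log2 differences of the 33 tested p53 target genes (points) with limma 95% intervals (lines), coloured by role, for olaparib minus vehicle in BRCA1+/- and wild-type ovaries and for BRCA1+/- minus wild type under olaparib and vehicle. Dotted lines mark a doubling and a halving; most points lie close to 0, and Perp has the widest intervals.

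The arrest genes are led by Cdkn1a, which encodes p21, an inhibitor of cyclin-dependent kinases and the most used readout of p53 activity. Cdkn1a read 4.67, 3.98, 4.69 and 4.75 in BRCA1+/- olaparib ovaries, against 5.50, 4.48, 5.11 and 5.05 in BRCA1+/- vehicle ovaries. It read 3.80, 4.94, 2.76 and 5.98 in wild-type olaparib ovaries, against 4.36, 4.41, 3.94 and 5.26 in wild-type vehicle ovaries. The groups overlapped in both genotypes, and the lowest and the highest of all 16 values both came from wild-type rats given olaparib. The olaparib difference was -0.51 ± 0.53 (SE) in BRCA1+/- ovaries, a fold of 0.702 with a 95% interval of 0.321 to 1.53, and -0.12 ± 0.53 in wild-type ovaries, a fold of 0.919 with an interval of 0.421 to 2.01. Exact two-sided permutation tests gave p = 0.114 and p = 0.886. A second, dimmer Cdkn1a probe gave -0.82 in BRCA1+/- ovaries and -0.13 in wild-type ovaries.

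The Cdkn1a spread within wild-type olaparib ovaries ran along the same division as the oviduct markers. The replicates with high oviduct markers, 1 and 3, held the 2 low values, and replicates 2 and 4 held the 2 high ones. Without the 6 arrays of high oviduct markers, a choice made after seeing the data, the wild-type olaparib difference turned to 0.97 (limma adjusted p = 0.9998). In BRCA1+/- ovaries, where leaving out those arrays leaves the first slide, the difference was -0.66 within the first slide and -0.36 within the second. In BRCA1+/- olaparib ovaries the arrays with high oviduct markers read 4.69 and 4.75, above the other 2, and in BRCA1+/- vehicle ovaries they read 5.11 and 5.05, between the other 2. In bulk ovary, fewer cells of a type and less RNA per cell cannot be told apart, and the part of the oviduct tissue in the Cdkn1a values was not tested.

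Ccng1, which encodes cyclin G1 and recruits a phosphatase to MDM2, read 2.53, 1.67, 2.02 and 2.55 in BRCA1+/- olaparib ovaries, against 1.72, 2.26, 1.20 and 1.86 in BRCA1+/- vehicle ovaries. It read 1.98, 2.75, 1.45 and 2.25 in wild-type olaparib ovaries, against 2.54, 2.50, 1.49 and 2.50 in wild-type vehicle ovaries. The groups overlapped throughout, with differences of 0.43 ± 0.33 and -0.15 ± 0.33 (SE). The BRCA1+/- value was 0.11 within the first slide and 0.75 within the second. Plk2, a polo-like kinase of the checkpoint, read -0.79, 0.25, -0.61 and -1.46 in BRCA1+/- olaparib ovaries, against 1.40, -0.47, 1.01 and 0.82 in BRCA1+/- vehicle ovaries. Only replicate 2 of each group broke the separation, being the highest under olaparib and the lowest under vehicle. The difference was -1.34 ± 0.59 (SE, unadjusted limma p = 0.038, adjusted p = 0.9999), and the exact permutation p was 0.0571. Within the first and the second slide it was -0.73 and -1.95.

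Plk2 differed the other way in wild-type ovaries, by 0.42 ± 0.59, and the interaction of -1.76 ± 0.83 did not pass (limma adjusted p = 0.968). It was -0.77 within the first slide and -2.74 within the second. Btg2, an antiproliferative gene, was the arrest gene furthest from 0 between the olaparib groups: it read 1.15, 1.65, 0.32 and 0.44 in BRCA1+/- olaparib ovaries against 1.15, 1.50, 2.15 and 2.01 in wild-type olaparib ovaries. The first 2 replicates of both groups read alike, and the separation came from replicates 3 and 4. The difference of -0.81 ± 0.38 (limma adjusted p = 1.00) was 0.08 within the first slide and -1.70 within the second.

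Of the other arrest genes, Gadd45a, a growth arrest and repair protein, had olaparib differences of -0.03 ± 0.58 in BRCA1+/- ovaries and -0.20 ± 0.58 in wild-type ovaries. Plk3, a second polo-like kinase, had -0.07 ± 0.36 and -0.19 ± 0.36 in the same order. Gadd45a averaged 4.68 ± 0.77 in BRCA1+/- olaparib, 4.71 ± 1.04 in BRCA1+/- vehicle, 4.12 ± 0.99 in wild-type olaparib and 4.33 ± 0.72 in wild-type vehicle ovaries (SD, n = 4 each). Plk3 averaged -1.46 ± 0.31 in BRCA1+/- olaparib, -1.39 ± 0.40 in BRCA1+/- vehicle, -1.39 ± 0.80 in wild-type olaparib and -1.19 ± 0.46 in wild-type vehicle ovaries. Among the 6 arrest genes, 1 was higher and 5 were lower under olaparib in BRCA1+/- ovaries, and 2 were higher and 4 lower in wild-type ovaries, and none passed. Cdkn1a and Gadd45a, whose windows hold a pair of half-sites with 1 mismatch, were on the lower side in both genotypes, within their errors.

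**Figure D2:**
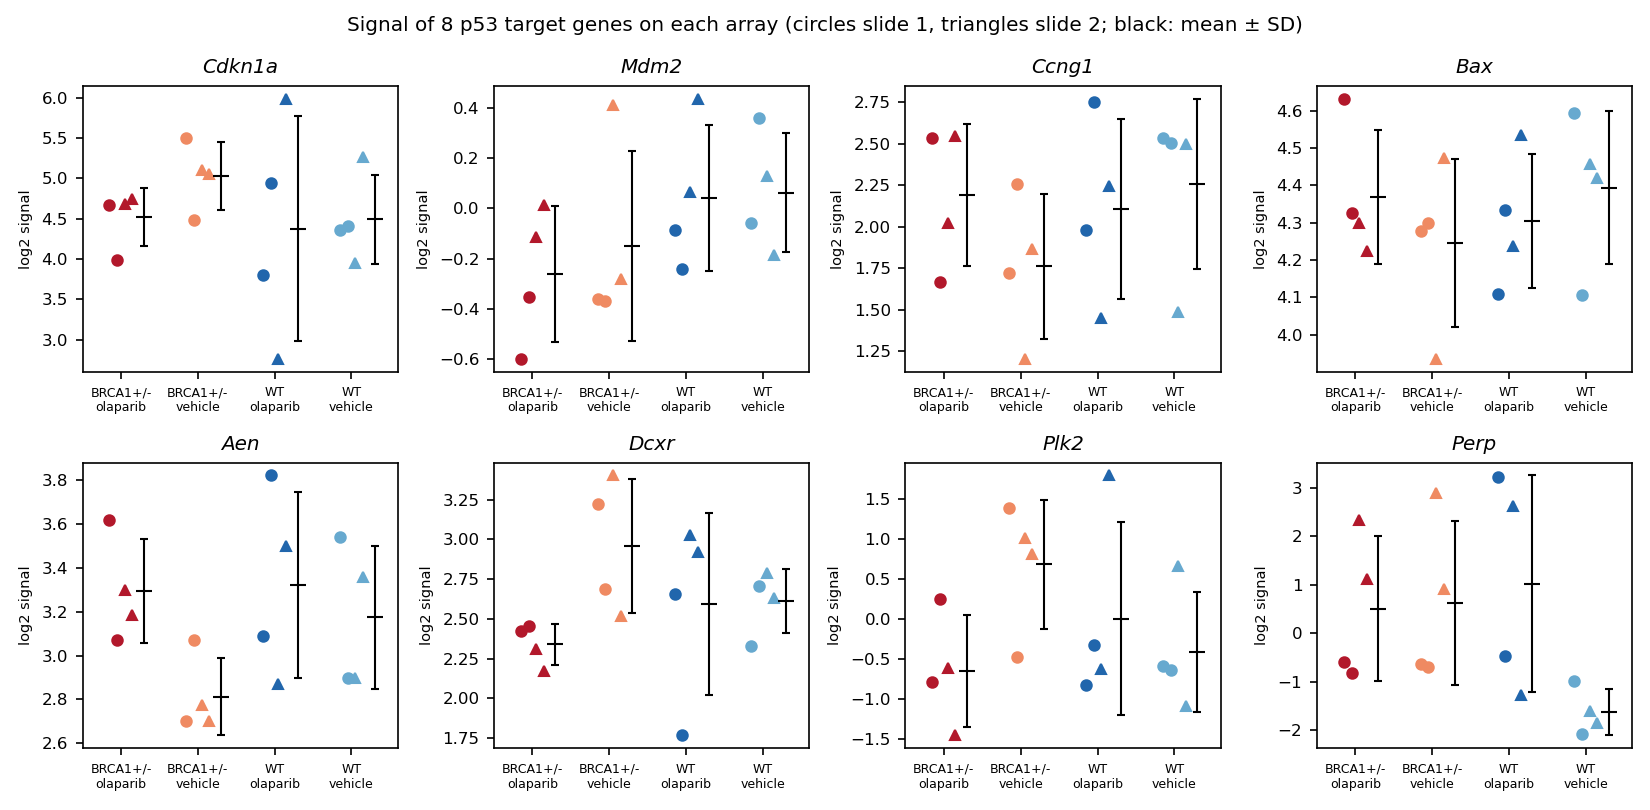
Log2 signal of 8 p53 target genes on each of the 16 arrays by group, with circles for slide 1, triangles for slide 2 and black bars for the group mean ± SD. Cdkn1a is spread from 2.76 to 5.98 in wild-type olaparib ovaries, Aen and Dcxr separate the BRCA1+/- groups, and all wild-type vehicle arrays are low for Perp.

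Mdm2, the ubiquitin ligase that closes the feedback loop on p53, read -0.60, -0.35, -0.11 and 0.01 in BRCA1+/- olaparib ovaries, against -0.36, -0.37, 0.41 and -0.28 in BRCA1+/- vehicle ovaries. It read -0.09, -0.24, 0.06 and 0.44 in wild-type olaparib ovaries, against -0.06, 0.36, 0.13 and -0.19 in wild-type vehicle ovaries. The groups lay on top of each other in wild-type ovaries and overlapped in BRCA1+/- ovaries. The olaparib fold was 0.925 (95% interval 0.667 to 1.28) in BRCA1+/- ovaries and 0.986 (0.711 to 1.37) in wild-type ovaries. The wild-type log2 difference was -0.32 within the first slide and 0.28 within the second.

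Averaged over treatments, Mdm2 differed by -0.26 ± 0.16 (log2, BRCA1+/- minus wild type), which did not pass (limma adjusted p = 1.00). Ppm1d, the WIP1 phosphatase that damps ATM signalling, had olaparib differences of -0.03 ± 0.23 in BRCA1+/- ovaries and -0.11 ± 0.23 in wild-type ovaries. Zmat3, an RNA-binding protein, had 0.12 ± 0.23 and 0.20 ± 0.23. Rps27l, a ribosomal protein variant that binds MDM2, had 0.22 ± 0.19 and -0.07 ± 0.19. Ppm1d averaged 0.06 ± 0.06 in BRCA1+/- olaparib, 0.09 ± 0.37 in BRCA1+/- vehicle, -0.16 ± 0.36 in wild-type olaparib and -0.06 ± 0.37 in wild-type vehicle ovaries (SD, n = 4 each). Zmat3 averaged 1.28 ± 0.29 in BRCA1+/- olaparib, 1.16 ± 0.25 in BRCA1+/- vehicle, 1.41 ± 0.41 in wild-type olaparib and 1.21 ± 0.30 in wild-type vehicle ovaries. Rps27l averaged 5.64 ± 0.28 in BRCA1+/- olaparib, 5.42 ± 0.08 in BRCA1+/- vehicle, 5.62 ± 0.30 in wild-type olaparib and 5.69 ± 0.25 in wild-type vehicle ovaries. The ranges of these 3 genes overlapped between all compared groups.

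Phlda3, a repressor of AKT, had olaparib differences of -0.17 ± 0.37 in BRCA1+/- ovaries and -0.47 ± 0.37 in wild-type ovaries. The wild-type value was 0.12 within the first slide and -1.05 within the second. Tp53inp1, a nuclear cofactor of p53, had -0.39 ± 0.65 and -0.41 ± 0.65 by its brightest probe, and its 4 probes did not share a direction in wild-type ovaries, running from -0.47 to 0.12. In BRCA1+/- ovaries the same 4 probes ran from -0.63 to -0.22. Phlda3 averaged -0.49 ± 0.61 in BRCA1+/- olaparib, -0.32 ± 0.43 in BRCA1+/- vehicle, -0.54 ± 0.59 in wild-type olaparib and -0.08 ± 0.55 in wild-type vehicle ovaries (SD, n = 4 each). Tp53inp1 averaged -0.45 ± 1.10 in BRCA1+/- olaparib, -0.07 ± 0.52 in BRCA1+/- vehicle, -0.25 ± 1.00 in wild-type olaparib and 0.16 ± 1.21 in wild-type vehicle ovaries. Of the 6 feedback genes, 2 were higher and 4 lower under olaparib in BRCA1+/- ovaries, and 1 was higher and 5 lower in wild-type ovaries, with none past the test.

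Bax, the pore-forming protein of the mitochondrial death pathway, was the steadiest of the death genes. It read 4.63, 4.33, 4.30 and 4.22 in BRCA1+/- olaparib ovaries, against 4.28, 4.30, 3.94 and 4.47 in BRCA1+/- vehicle ovaries. It read 4.11, 4.34, 4.24 and 4.53 in wild-type olaparib ovaries, against 4.59, 4.11, 4.46 and 4.42 in wild-type vehicle ovaries. All 4 groups overlapped. The olaparib fold was 1.09 (95% interval 0.850 to 1.40) in BRCA1+/- ovaries and 0.939 (0.733 to 1.20) in wild-type ovaries, and the averaged fold was 1.01 (0.849 to 1.21).

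Aen, a nuclease that takes part in the DNA fragmentation of apoptosis, was 1 of 2 targets whose BRCA1+/- groups did not overlap. It read 3.62, 3.07, 3.30 and 3.19 in BRCA1+/- olaparib ovaries, against 2.70, 3.07, 2.77 and 2.70 in BRCA1+/- vehicle ovaries. The separation was narrow, since replicate 2 read 3.0715 in the olaparib group and 3.0695 in the vehicle group. It read 3.09, 3.82, 2.87 and 3.50 in wild-type olaparib ovaries, against 3.54, 2.90, 2.90 and 3.36 in wild-type vehicle ovaries, where the groups overlapped. The difference was 0.48 ± 0.22 in BRCA1+/- ovaries (SE, limma adjusted p = 0.9999), a fold of 1.40 with a 95% interval of 1.00 to 1.95, and 0.15 ± 0.22 in wild-type ovaries. The exact permutation p in BRCA1+/- ovaries was 0.0286, the smallest that 4 against 4 arrays can give and the value of any full separation. Over all genes, 0.499% had every BRCA1+/- olaparib array above every BRCA1+/- vehicle array.

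The Aen difference in BRCA1+/- ovaries was 0.46 within the first slide and 0.50 within the second. Aen averaged 2.81 ± 0.18 in BRCA1+/- vehicle ovaries, against 3.17 ± 0.33 in wild-type vehicle ovaries (SD, n = 4 each). Under olaparib it averaged 3.29 ± 0.24 in BRCA1+/- ovaries and 3.32 ± 0.42 in wild-type ovaries. The interaction of 0.34 ± 0.32 did not pass (limma adjusted p = 0.968).

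Fas, the death receptor, read -3.93, -4.05, -4.11 and -4.05 in BRCA1+/- olaparib ovaries, against -4.58, -4.33, -4.01 and -4.52 in BRCA1+/- vehicle ovaries. All but replicate 3 of the vehicle group lay below the olaparib group. The difference of 0.32 ± 0.23 did not pass (limma adjusted p = 0.9999, exact permutation p = 0.114), and it was -0.02 after normexp background correction. In wild-type ovaries the difference was -0.22 ± 0.23.

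Tnfrsf10b, the TRAIL receptor, was well above background on 15 of 16 arrays and had olaparib differences of -0.04 ± 0.47 in BRCA1+/- ovaries and 0.51 ± 0.47 in wild-type ovaries. Apaf1, the scaffold of the apoptosome, had -0.42 ± 0.28 and 0.12 ± 0.28. Casp8, the initiator caspase downstream of the death receptors, had 0.03 ± 0.20 and 0.00 ± 0.20. Ei24, an endoplasmic reticulum protein with a half-site among the stretches above, had 0.38 ± 0.53 and -0.51 ± 0.53, and the wild-type value turned to 0.33 without the arrays of high oviduct markers. Tnfrsf10b averaged -3.79 ± 0.13 in BRCA1+/- olaparib, -3.74 ± 0.51 in BRCA1+/- vehicle, -3.83 ± 0.90 in wild-type olaparib and -4.34 ± 0.94 in wild-type vehicle ovaries (SD, n = 4 each). Apaf1 averaged -0.32 ± 0.41 in BRCA1+/- olaparib, 0.10 ± 0.25 in BRCA1+/- vehicle, -0.08 ± 0.24 in wild-type olaparib and -0.20 ± 0.60 in wild-type vehicle ovaries. Casp8 averaged 0.87 ± 0.13 in BRCA1+/- olaparib, 0.84 ± 0.38 in BRCA1+/- vehicle, 0.80 ± 0.18 in wild-type olaparib and 0.80 ± 0.32 in wild-type vehicle ovaries. Their groups overlapped. Ei24 averaged -0.27 ± 0.34 in BRCA1+/- olaparib, -0.65 ± 1.03 in BRCA1+/- vehicle, -0.78 ± 1.00 in wild-type olaparib and -0.27 ± 0.69 in wild-type vehicle ovaries. Eda2r, a receptor of the TNF family, was well above background on 5 of 16 arrays and was not tested; its brightest probe lay between -7.55 and -4.60. Setting Perp aside, the death genes thus lay within 0.51 of no difference in both genotypes.

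Perp, a membrane protein of desmosomes in stratified and other epithelia as well as a p53 target, had the largest difference of the 33 for olaparib in wild-type ovaries and for genotype under vehicle. It read -0.60, -0.82, 2.34 and 1.12 in BRCA1+/- olaparib ovaries, against -0.63, -0.69, 2.90 and 0.91 in BRCA1+/- vehicle ovaries. It read 3.22, -0.48, 2.62 and -1.29 in wild-type olaparib ovaries, against -0.99, -2.09, -1.61 and -1.85 in wild-type vehicle ovaries. The 6 values above 0 were those of the 6 arrays with high oviduct markers, and the other 10 lay below 0. The wild-type vehicle group, which held none of those arrays, was low throughout.

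The Perp difference was 2.66 ± 1.04 with olaparib in wild-type ovaries (SE, limma adjusted p = 0.964) and -0.11 ± 1.04 in BRCA1+/- ovaries. BRCA1+/- against wild-type vehicle ovaries gave 2.26 ± 1.04 (limma adjusted p = 0.862). All 4 BRCA1+/- values lay above all 4 wild-type values, as for 1.25% of all genes. Such a separation fixes the exact permutation p at 0.0286. Within the first and the second slide the wild-type olaparib difference was 2.91 and 2.40, and the genotype difference under vehicle 0.88 and 3.64. Without the 6 arrays these differences were 0.76 and 0.98. Of the 10 listed oviduct and ciliated markers 8 were tested, and their summed level (as a multiple of the 75th percentile) ran from 6.72 to 112 in BRCA1+/- olaparib ovaries, 10.2 to 216 in BRCA1+/- vehicle ovaries, 8.34 to 175 in wild-type olaparib ovaries and 3.99 to 8.42 in wild-type vehicle ovaries. Their median difference was 2.76 for olaparib in wild-type ovaries and 2.28 for genotype under vehicle, with all 8 higher in both, although 1 of them, Dnai1, was well above background on 0 of the 4 wild-type vehicle arrays. Adipocyte markers also differed between the wild-type groups: 5 of 8 were tested and all 5 were higher under olaparib. Their summed level was 0.231 to 47.0 in wild-type olaparib ovaries, against 0.610 to 2.53 in wild-type vehicle ovaries. The mean of their log2 signals, each centred over the 16 arrays, was 4.45, 2.89, 1.12 and -2.91 in wild-type olaparib replicates 1 to 4. That mean did not rank these arrays as Perp did. For genotype under vehicle 4 of the 5 were higher (median 2.55), with a summed level of 1.48 to 8.93 in BRCA1+/- vehicle ovaries. Of the 5 markers of surface epithelium and mesothelium, 4 were higher for olaparib in wild-type ovaries (median 1.12) and 4 for genotype under vehicle (median 0.37). The part of these tissues in the Perp difference was not tested.

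**Figure D3:**
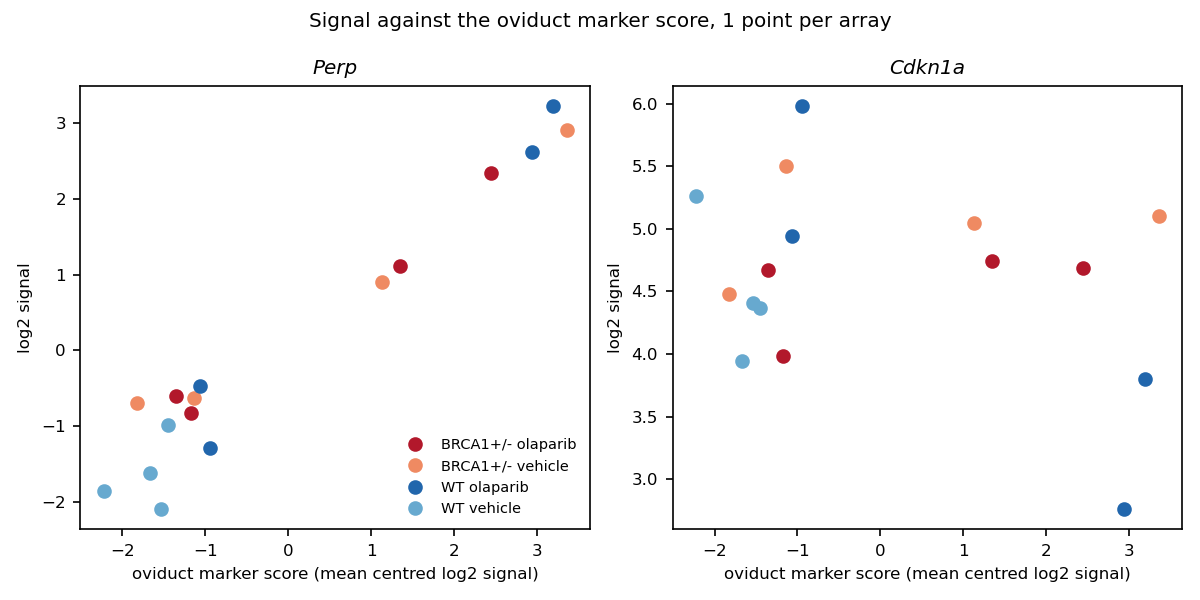
Log2 signal of Perp and Cdkn1a (vertical axes) against the oviduct marker score, the mean of the marker genes' log2 signals after centring each over the 16 arrays (horizontal axes), with 1 point per array coloured by group. For Perp the 6 arrays with a score above 1 lie above 0 and the other 10 below 0; for Cdkn1a the 2 wild-type olaparib arrays with a score near 3 read 3.80 and 2.76.

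None of the 4 tested repair genes passed in any comparison. Xpc, the damage sensor of nucleotide excision repair, varied least of all 33 targets, with an SD within groups of 0.183, and had olaparib differences of 0.14 ± 0.16 in BRCA1+/- ovaries and 0.04 ± 0.16 in wild-type ovaries. Ddb2, which recognises ultraviolet lesions with it, had 0.09 ± 0.25 and -0.24 ± 0.25. Polk, a translesion polymerase, read 0.16, 0.04, -0.17 and 0.30 in wild-type olaparib ovaries, against -0.11, -0.18, -0.09 and -0.58 in wild-type vehicle ovaries. Replicate 3 of the olaparib group was the array that overlapped the vehicle group. Its difference was 0.32 ± 0.20 there (limma adjusted p = 0.964, exact permutation p = 0.0857) and -0.22 ± 0.20 in BRCA1+/- ovaries. Rrm2b, the p53-inducible subunit of ribonucleotide reductase, was well above background on 8 of 16 arrays, so its differences of -0.40 ± 0.59 and 0.24 ± 0.59 rest partly on dim signals. Xpc averaged 0.02 ± 0.07 in BRCA1+/- olaparib, -0.11 ± 0.22 in BRCA1+/- vehicle, 0.06 ± 0.19 in wild-type olaparib and 0.02 ± 0.21 in wild-type vehicle ovaries (SD, n = 4 each). Ddb2 averaged -0.23 ± 0.27 in BRCA1+/- olaparib, -0.33 ± 0.15 in BRCA1+/- vehicle, -0.41 ± 0.53 in wild-type olaparib and -0.17 ± 0.35 in wild-type vehicle ovaries. Rrm2b averaged -5.48 ± 0.62 in BRCA1+/- olaparib, -5.07 ± 0.71 in BRCA1+/- vehicle, -5.19 ± 1.04 in wild-type olaparib and -5.44 ± 1.11 in wild-type vehicle ovaries.

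Among the genes of metabolism and redox balance, Dcxr, a carbonyl reductase of xylulose, was the other target whose BRCA1+/- groups did not overlap. It read 2.42, 2.46, 2.31 and 2.17 in BRCA1+/- olaparib ovaries, against 3.23, 2.69, 3.40 and 2.52 in BRCA1+/- vehicle ovaries. It read 2.66, 1.77, 3.03 and 2.92 in wild-type olaparib ovaries, against 2.33, 2.70, 2.79 and 2.63 in wild-type vehicle ovaries, where the groups overlapped. The difference in BRCA1+/- ovaries was -0.62 ± 0.26 (SE, limma adjusted p = 0.9999), a fold of 0.652 with a 95% interval of 0.440 to 0.965, and that in wild-type ovaries was -0.02 ± 0.26. The exact permutation p in BRCA1+/- ovaries was 0.0286, the value that any full separation of 4 against 4 arrays gives. Over all genes, 0.608% had every BRCA1+/- olaparib array below every BRCA1+/- vehicle array. Within slides the difference was -0.52 and -0.72. Beside these BRCA1+/- differences of Plk2, Aen and Dcxr, all 5 red blood cell markers were lower under olaparib, with a summed level of 271 to 607 in BRCA1+/- olaparib ovaries, against 538 to 1172 in BRCA1+/- vehicle ovaries, and their part was not tested.

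Sesn1 and Sesn2, the sestrins that restrain mTORC1, had olaparib differences of 0.01 ± 0.39 and 0.10 ± 0.27 in BRCA1+/- ovaries. In wild-type ovaries Sesn1 had 0.03 ± 0.39 and Sesn2 0.27 ± 0.27. Tigar, a fructose bisphosphatase that slows glycolysis, had 0.35 ± 0.43 in BRCA1+/- ovaries and -0.27 ± 0.43 in wild-type ovaries. Ddit4, another restraint on mTORC1, had 0.15 ± 0.35 and -0.17 ± 0.35. Sesn1 averaged -1.56 ± 0.33 in BRCA1+/- olaparib, -1.57 ± 0.74 in BRCA1+/- vehicle, -1.92 ± 0.69 in wild-type olaparib and -1.95 ± 0.45 in wild-type vehicle ovaries (SD, n = 4 each). Sesn2 averaged -2.51 ± 0.19 in BRCA1+/- olaparib, -2.61 ± 0.32 in BRCA1+/- vehicle, -2.34 ± 0.20 in wild-type olaparib and -2.61 ± 0.64 in wild-type vehicle ovaries. Tigar averaged 1.93 ± 0.39 in BRCA1+/- olaparib, 1.58 ± 0.50 in BRCA1+/- vehicle, 1.53 ± 1.03 in wild-type olaparib and 1.80 ± 0.40 in wild-type vehicle ovaries. Their groups overlapped in both genotypes.

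Fdxr, the ferredoxin reductase that feeds electrons to mitochondrial P450 enzymes and so serves steroid synthesis in this tissue as well as being a p53 target, had olaparib differences of 0.16 ± 0.32 in BRCA1+/- ovaries and -0.10 ± 0.32 in wild-type ovaries. Ak1, an adenylate kinase, had 0.21 ± 0.42 and 0.18 ± 0.42 by its brighter probe, and a dimmer probe gave 0.05 and -0.08. The files place its probes on chromosome 2 of rn4, whereas RefSeq (GRCr8) has Ak1 on chromosome 3. Pltp, a phospholipid transfer protein, had -0.34 ± 0.42 and 0.31 ± 0.42. Ddit4 averaged 4.76 ± 0.42 in BRCA1+/- olaparib, 4.61 ± 0.40 in BRCA1+/- vehicle, 4.78 ± 0.85 in wild-type olaparib and 4.95 ± 0.21 in wild-type vehicle ovaries (SD, n = 4 each). Fdxr averaged 7.84 ± 0.19 in BRCA1+/- olaparib, 7.67 ± 0.16 in BRCA1+/- vehicle, 7.80 ± 0.86 in wild-type olaparib and 7.90 ± 0.25 in wild-type vehicle ovaries. Pltp averaged 0.61 ± 0.73 in BRCA1+/- olaparib, 0.95 ± 0.68 in BRCA1+/- vehicle, 0.65 ± 0.56 in wild-type olaparib and 0.34 ± 0.48 in wild-type vehicle ovaries. Their groups overlapped as well. Ak1 averaged 4.72 ± 0.47, 4.51 ± 0.60, 4.68 ± 0.95 and 4.50 ± 0.36 in the 4 groups in the same order. Of these 8 genes, 6 were higher and 2 lower under olaparib in BRCA1+/- ovaries, and 4 were higher and 4 lower in wild-type ovaries, with none past the test.

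Gdf15, a secreted cytokine of the TGF-beta family, read -1.25, -1.60, -1.23 and -1.43 in BRCA1+/- olaparib ovaries, against -2.02, -2.35, -0.71 and -1.64 in BRCA1+/- vehicle ovaries. It read -1.36, 0.39, -1.24 and -1.93 in wild-type olaparib ovaries, against -1.60, -1.14, -1.75 and -1.99 in wild-type vehicle ovaries. The single high value was replicate 2 of wild-type olaparib, and the groups overlapped in both genotypes. The averaged olaparib difference was 0.44 ± 0.30 (limma adjusted p = 1.00), 0.82 within the first slide and 0.06 within the second.

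As a mean centred score, in which each gene is set to its mean over the 16 arrays before averaging, the 33 targets came to -0.01 ± 0.04 in BRCA1+/- olaparib ovaries and 0.04 ± 0.05 in BRCA1+/- vehicle ovaries (SD, n = 4 each). The score was 0.03 ± 0.22 in wild-type olaparib ovaries and -0.07 ± 0.03 in wild-type vehicle ovaries. Without Perp it was -0.02 ± 0.04 in BRCA1+/- olaparib, 0.03 ± 0.06 in BRCA1+/- vehicle, 0.01 ± 0.29 in wild-type olaparib and -0.01 ± 0.04 in wild-type vehicle ovaries. The group means ran from -0.07 to 0.04, and the wild-type olaparib group was the most spread, from -0.23 to 0.23. Under vehicle all 4 BRCA1+/- scores (-0.015 to 0.11) lay above all 4 wild-type scores (-0.12 to -0.04). Without Perp these ranges overlapped, at -0.05 to 0.09 against -0.06 to 0.03. The score was not tested. The score of the 6 arrest genes was spread more widely and ran from -0.72 to 0.94 in wild-type olaparib ovaries, against -0.14 to 0.08 in wild-type vehicle ovaries. Replicate 3 of wild-type olaparib held the lowest of the 16 values for 9 targets, and replicate 4 the highest for 7.

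Targets also differed in how much they varied between animals of the same group. The SD within groups ran from 0.183 for Xpc, 0.198 for Bax and 0.244 for Rps27l to 0.991 for Tp53inp1 and 1.61 for Perp, with a median of 0.523 over the 33, against 0.428 over all genes.

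**Figure D4:**
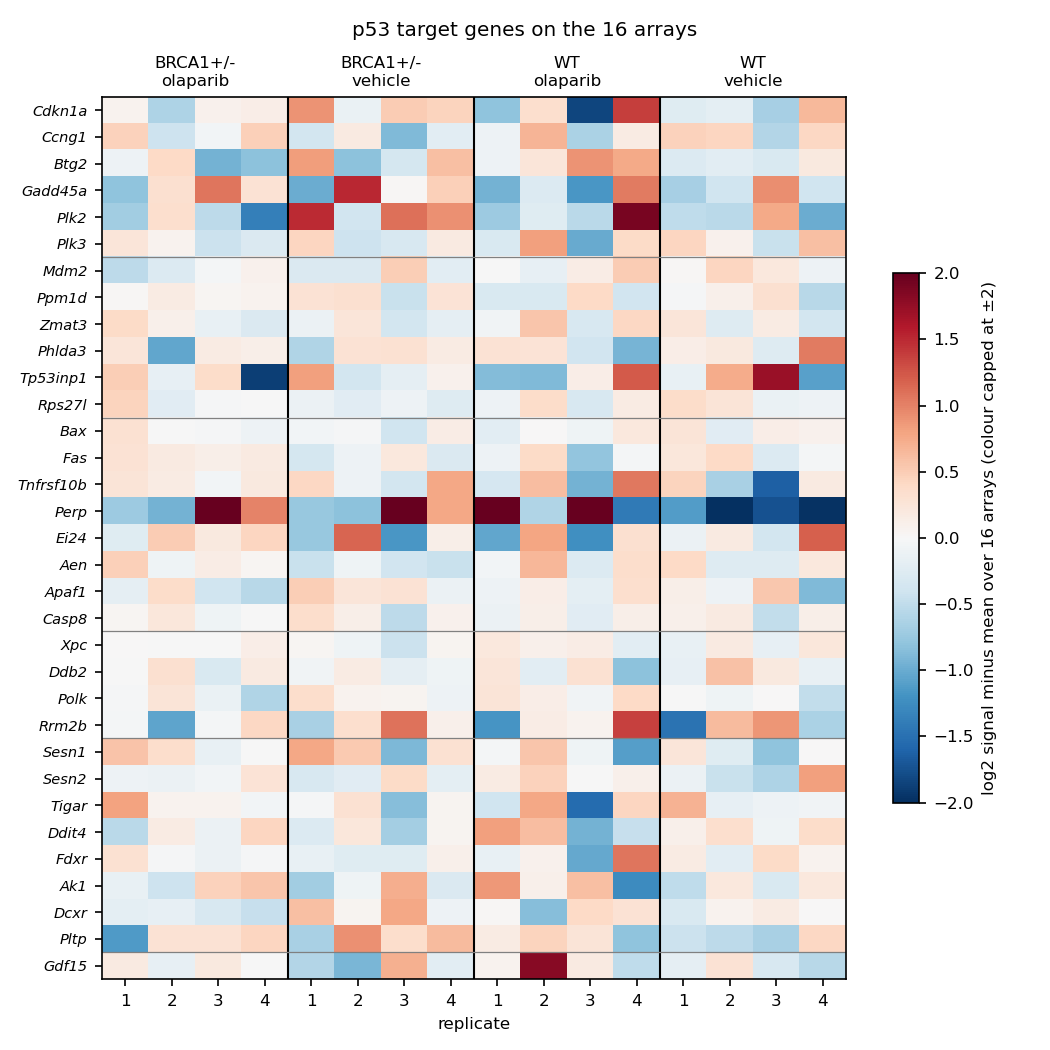
Log2 signal of each of the 33 tested p53 target genes (rows, ordered by role) on the 16 arrays (columns, by group and replicate) after subtraction of the gene's mean over the arrays. No group forms a block of 1 colour, Perp is high on 6 arrays, and replicates 3 and 4 of wild-type olaparib hold many of the extreme values.

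Among 21 kinases, cofactors and regulators upstream of p53, 20 were tested and 0 passed in any comparison. Under olaparib 14 were higher and 6 lower in BRCA1+/- ovaries, where 53.2% of all genes were higher, and 6 were higher and 14 lower in wild-type ovaries, where 39.2% were. These shares of all genes move with the scaling, to 68.7% and 30.6% when arrays are set to their medians. The smallest unadjusted p belonged to Cdkn2a, the locus of p16 and of ARF, which inhibits MDM2. It read -4.06, -2.36, -5.22 and -2.89 in wild-type olaparib ovaries, against -2.15, -1.32, -1.47 and -1.69 in wild-type vehicle ovaries. All olaparib values lay below all vehicle values, as for 0.593% of all genes, and the 2 lowest were those of the arrays with high oviduct markers. The difference was -1.97 ± 0.52 (SE, limma adjusted p = 0.964), against 0.31 ± 0.52 in BRCA1+/- ovaries, and the interaction of 2.29 ± 0.74 did not pass (adjusted p = 0.968).

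Tp53bp2, which encodes the p53 cofactor ASPP2, had an olaparib difference of 0.50 ± 0.17 in wild-type ovaries (limma adjusted p = 0.964). It read 2.49, 2.03, 2.56 and 2.08 in wild-type olaparib ovaries, against 1.96, 1.71, 1.93 and 1.58 in wild-type vehicle ovaries. The olaparib values lay above all vehicle values, as for 0.564% of all genes. The higher olaparib values were those of replicates 1 and 3, the arrays with high oviduct markers. Tp73, the p53 relative with a known part in the ciliated cells of airway and oviduct, was well above background on 3 of 4 wild-type olaparib arrays and on 0 of 4 wild-type vehicle arrays, so no difference is given. It read 1.07, -6.41, 0.58 and -3.87 in wild-type olaparib ovaries, against -7.34, -5.84, -6.89 and -7.89 in wild-type vehicle ovaries, so that its high values again fell on replicates 1 and 3.

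Of 20 further p53 targets outside the 35, 18 were tested and 0 passed; 8 were higher and 10 lower under olaparib in BRCA1+/- ovaries (median -0.04, against 0.02 over all genes), and 12 were higher and 6 lower in wild-type ovaries (median 0.19, against -0.07). Ephx1, an epoxide hydrolase, had a genotype difference of 1.17 ± 0.43 under vehicle and Epha2, a receptor kinase, one of -1.18 ± 0.51 (limma adjusted p = 0.862 for both). Rprm, an inhibitor of the G2 to M step, had an olaparib difference of 3.72 ± 1.68 in wild-type ovaries (adjusted p = 0.964), with 3.00 and 2.56 in replicates 1 and 3 and -2.11 and -2.14 in replicates 2 and 4, all above the wild-type vehicle values of -3.70 to -3.07, as for 0.564% of all genes. The high replicates were those with high oviduct markers, whose part in the Rprm, Tp73, Tp53bp2 and Cdkn2a values was not tested.

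The 14 genes repressed through p21 and the DREAM complex, which are genes of replication and mitosis, were all tested and 0 passed in any comparison. Under olaparib 13 were higher and 1 lower in BRCA1+/- ovaries (median 0.31, against 0.02 over all genes), and 0 were higher and 14 lower in wild-type ovaries (median -0.24, against -0.07). BRCA1+/- against wild-type ovaries gave 12 higher and 2 lower under olaparib (median 0.10, against 0.02) and 0 higher and 14 lower under vehicle (median -0.58, against -0.06). The interaction gave 14 higher and 0 lower (median 0.66, against 0.08), and the averaged genotype difference 0 higher and 14 lower (median -0.23, against -0.02). The averaged olaparib difference gave 8 higher and 6 lower (median 0.03, against -0.02). These comparisons share groups, so the splits are not independent.

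Tissue markers also differed in these comparisons. All 14 DREAM genes were lower for olaparib in wild-type ovaries, for genotype under vehicle and for the averaged genotype difference. In each of these all 8 oviduct markers were higher, as were 5, 4 and 3 of the 5 adipocyte markers in the same order. For genotype under olaparib 0 of 8 oviduct and 0 of 5 adipocyte markers were higher (medians -0.74 and -1.23). For olaparib in BRCA1+/- ovaries 0 of 5 red blood cell markers were higher (median -0.65). In the interaction 0 of 8 oviduct, 0 of 5 adipocyte and 0 of 5 red blood cell markers were higher. Granulosa markers were split, with 4 higher and 3 lower for olaparib in wild-type ovaries and 5 and 2 in BRCA1+/- ovaries. They were 2 and 5 for genotype under vehicle, 3 and 4 for the averaged genotype difference, and 4 and 3 in the interaction. All 5 red blood cell markers were higher for genotype under vehicle. All 6 tested oocyte and all 5 endothelial markers were higher in the averaged genotype difference. By array, the mean centred DREAM score did not always follow the oviduct markers. Of the wild-type olaparib arrays with high oviduct markers, replicate 3 held the group's highest score (0.44) and replicate 1 a lower one (-0.23). Of the BRCA1+/- olaparib ones, replicate 4 held the highest (0.41) and replicate 3 the lowest (-0.66). Among BRCA1+/- vehicle arrays, those with high oviduct markers held the lowest scores (-0.68 and -0.55). The part of these tissues in the DREAM values was not tested.

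Within the DREAM genes, Mcm3, a subunit of the replicative helicase, had the smallest unadjusted p, with 0.72 ± 0.28 for olaparib in BRCA1+/- ovaries (limma adjusted p = 0.9999) and -0.65 ± 0.28 for genotype under vehicle (adjusted p = 0.862). Cdc25c, the phosphatase that opens mitosis, had an interaction of 0.65 ± 0.29 (adjusted p = 0.968), and E2f1, a transcription factor of the G1 to S step, had a genotype difference under vehicle of -0.71 ± 0.33 (adjusted p = 0.862).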

How the data were processed

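The authors hybridised Cy3-labelled total RNA of 16 ovaries to single-colour Agilent arrays and extracted spots with Feature Extraction (10.7 in the submitters' processing notes, 10.7.1.1 in the file headers). The processed signal is a background-subtracted intensity per the file headers, which name the rat build rn4; mean and background intensity columns of the deposited files served 1 alternative. The deposited value table holds log2 values. Set against the scanner values, they differ from the log2 processed signal by 1 constant in each array (r = 1.0).

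Here each array was scaled to its 75th percentile over its non-control probes (45598, less 12 removed through spot marks). Probes well above background on at least 3 of 4 arrays of a group were kept (26820, giving 20227 genes). Names came through RefSeq accessions or symbols for 16352 of these, and each remaining probe without a symbol stood as a gene of its own. Limma 3.58.1 in R 4.3.3 fitted the 4 group means (12 residual and 2.43 prior degrees of freedom), two-sided, with Benjamini-Hochberg adjustment over all genes and a threshold of 0.05; single values had exact permutation tests. The fit was tested on simulated data. The precision is limited by 4 arrays per group. The members and lists were chosen with earlier results of these data known. Named members are those with the 3 smallest p-values in each direction per comparison where none passed, Cdkn1a, Mdm2, Ccng1 and Bax, those whose groups do not overlap, and up to 3 per further list; 1 more gene of this rule is not reported here. The main fit did not pair samples by replicate number. Of 24 same-number pairs, 13 correlated above 0.1 (range -0.44 to 0.71). Their median r was 0.21, against -0.05 for pairs of other numbers. Same-number arrays always shared a slide.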

Additional observations from a re-analysis of the deposited data

Results flagged for a closer look

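In groups of 4 arrays, a single array stood far from the other 3 in 13 of 136 combinations of gene and group examined; chance gives about 1 in 20. In BRCA1+/- olaparib ovaries these were Cdkn1a (3.98 in replicate 2, others from 4.67), Phlda3 (-1.40 in replicate 2, others from -0.24), Tigar (2.51 in replicate 1, others up to 1.78), Xpc (0.12 in replicate 4, others up to 0.00) and Pltp (-0.49 in replicate 1, others from 0.92). In BRCA1+/- vehicle ovaries they were Mdm2 (0.41 in replicate 3, others up to -0.28), Ppm1d (-0.47 in replicate 3, others from 0.25) and Phlda3 (-0.95 in replicate 1, others from -0.19). In wild-type olaparib ovaries it was Ppm1d (0.38 in replicate 3, others up to -0.32). In wild-type vehicle ovaries they were Ccng1 (1.49 in replicate 3, others from 2.50), Gadd45a (5.39 in replicate 3, others up to 4.06), Casp8 (0.33 in replicate 3, others from 0.93) and Tigar (2.40 in replicate 1, others up to 1.64). All values are log2 signals.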

How the results depend on the processing

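There were 29 other settings, 16 of which left out 1 array each. The fits within each of the 2 slides gave differences without a test. In the other settings no p53 target was called, and the lowest limma adjusted p was 0.436. Outside the fits within a slide, 41 of 65 gene differences never changed direction. The fit with the replicate block, tried because the labels number replicates alike in all groups, called 0 targets in each comparison and left every difference as it was, 11 of 16 arrays correlating best with their own number. Scaling to the array median shifted the median of all genes by 0.17 in the interaction, and the share of all genes with a higher value was then 68.7% in place of 53.2% for olaparib in BRCA1+/- ovaries, 66.2% in place of 53.2% for genotype under olaparib, 32.1% in place of 42.2% for genotype under vehicle and 71.4% in place of 57.8% for the interaction. With that scaling the score interaction was 0.0179 in place of -0.15, the Mdm2 interaction 0.0732, and 0 targets separated the BRCA1+/- groups; after normexp correction 1 did, and Fas came to -0.0214 for olaparib in BRCA1+/- ovaries and -0.0286 for genotype under olaparib. Averaging the probes of a gene gave 1 separated target between genotypes under olaparib, and quantile normalization gave 0.0038 for Bax in the averaged genotype difference. The causes were not tested.

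Within the first and the second slide, Phlda3 was 0.12 and -1.05 for olaparib in wild-type ovaries, Mdm2 -0.32 and 0.28 there, -0.21 and 0.0811 for olaparib on average, -0.52 and 0.0931 for genotype under vehicle and 0.21 and -0.39 in the interaction, Perp -0.60 and 2.35 for the averaged genotype difference, Btg2 0.0775 and -1.70 for genotype under olaparib and 0.16 and -0.76 on average, Bax 0.26 and -0.12 for genotype under olaparib and 0.0966 and -0.18 on average, Ccng1 -0.27 and 0.44 for genotype under olaparib and -0.0214 and 0.30 for olaparib on average, and Cdkn1a -0.0423 and 0.34 for genotype under olaparib. These 13 of 65 gene differences took opposite directions on the slides; of those that did not, Plk2 was -0.77 and -2.74 and Btg2 -0.17 and -1.88 in the interaction. Leaving out the 6 arrays of high oviduct markers, chosen after seeing the data, turned these wild-type olaparib differences: Cdkn1a 0.97, Ei24 0.33, Ccng1 0.24, Bax 0.0404 and Mdm2 0.0342. In the average it turned Plk2 to 0.21 and Cdkn1a to 0.15. Between genotypes under olaparib it gave Cdkn1a -1.13, Gadd45a -0.62, Ccng1 -0.40 and Tigar -0.17, on average Cdkn1a -0.32 and Gadd45a -0.11, and in the interaction Ei24 -0.40 and Ccng1 -0.13. The score difference became 0.27 (0.10 with all arrays) for olaparib in wild-type ovaries, -0.23 (-0.04) for genotype under olaparib and -0.31 (-0.15) in the interaction. Targets with separated groups became 8 and 5 of 33 for olaparib in BRCA1+/- (24.2%, against 26.2% of all genes) and wild-type ovaries (15.2%, against 7.73%), and 9 and 5 for genotype under olaparib (27.3%, against 26.4%) and vehicle (15.2%, against 11.7%); smaller groups separate more often by construction.

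Leaving out 1 array at a time gave 2 to 6 separated targets for olaparib in BRCA1+/- ovaries (1.11% to 5.11% of all genes), 0 to 2 in wild-type ovaries (1.16% to 5.98%), 0 to 2 for genotype under olaparib (0.583% to 4.04%) and 1 to 4 under vehicle (3.44% to 11.3%). The most were seen without BRCA1+/- vehicle replicate 3 (6, or 18.2%, against 3.26% of all genes), wild-type vehicle replicate 4 (2, or 6.06%, against 3.14%), wild-type olaparib replicate 2 (2, or 6.06%, against 4.04%) and wild-type vehicle replicate 3 (4, or 12.1%, against 11.3%), in the same order. Without wild-type olaparib replicate 4, 1 gene of all tested was called for olaparib in BRCA1+/- ovaries and 1 for the averaged genotype difference (0 to 1 over the arrays left out). Directions turned for Cdkn1a in wild-type olaparib (-0.66 to 0.41), genotype under olaparib (-0.39 to 0.69) and interaction (-0.92 to 0.15), Mdm2 in wild-type (-0.15 to 0.0796), BRCA1+/- (-0.20 to 0.075) and average olaparib (-0.13 to 0.0276) and interaction (-0.19 to 0.0948), Bax in average olaparib (-0.0348 to 0.0547), genotype under olaparib (-0.0212 to 0.14) and average genotype (-0.0891 to 0.0105), Ccng1 in wild-type olaparib (-0.41 to 0.0696) and genotype under olaparib (-0.13 to 0.30), and Tigar in genotype under olaparib (-0.0482 to 0.73). Scan date was not run as a block because it coincided with the slide. Signal over background limits Eda2r, Rrm2b and Tnfrsf10b.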
